A study of Mus musculus with 9 samples.

Results

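The genes described here are 10 integrin chain genes of mouse γδ T cells, namely the α chain genes Itga1, Itga2, Itga4, Itga6, Itgal and Itgax and the β chain genes Itgb1, Itgb2, Itgb3 and Itgb7. They were chosen by name, with earlier results of these data known, from a list that leaves out Itgae. Each was read from the array row that carries its symbol alone, the row of highest mean where a gene has several. All 10 had exactly 1 such row, out of 22180 genes with a row of 1 symbol. RNA was taken from γδ T cells of mice of the C57BL/6 strain background and hybridised to Affymetrix Mouse Gene 2.0 ST arrays, 3 for each of 3 subsets. The intestinal epithelium gave intraepithelial lymphocytes (IELs), and peripheral lymph nodes (axillary, brachial and inguinal) gave Naive-like and Type-1 cells, so subset and tissue cannot be told apart in any comparison with IELs. No genotype or treatment is given for any group, and neither the age of the mice, nor the sort gate that separates Naive-like from Type-1 cells, nor whether an array holds 1 mouse or a pool is given in the sources used here. The 3 arrays of a subset are called biological replicates. The p-values judge a difference against the spread between replicate arrays, estimated over all 3 subsets and moderated across genes.

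Integrins are adhesion receptors made of 1 α and 1 β chain, and a chain reaches the cell surface only with its partner. The α chain largely sets the ligand, and a β chain is shared by several α chains. On T cells the β2 integrins bind intercellular adhesion molecules on other cells, α4 integrins bind VCAM-1 and MAdCAM-1 on blood vessels and direct traffic to inflamed tissue and gut, and several β1 integrins bind collagen, laminin and fibronectin of the tissue matrix. αEβ7, built from Itgae and Itgb7, binds E-cadherin on epithelial cells and is the integrin by which intraepithelial lymphocytes are best known.

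All values are log2 of the deposited array signal, given as the mean ± SD with n = 3 arrays per subset. Differences are log2 with their standard error, from 1 limma fit over all genes, and a gene passed where its Benjamini-Hochberg adjusted p over 22180 genes was under 0.05. Within a subset, arrays correlated at 0.947 to 0.982 (Pearson's r across genes), and the array medians ran from 4.25 to 4.43. The T cell genes Cd3d, Cd3e, Cd3g and Ptprc were bright in every subset, with Cd3g at 12.00 ± 0.31 in IELs, 11.45 ± 0.23 in Naive-like and 11.00 ± 0.29 in Type-1 cells. Of 12 genes listed as γδ T cell markers 9 had a row of their own, and Trdc was not among them. Trgv5 was at 4.47, 3.35 and 3.62 and Trgv6 at 4.07, 3.83 and 4.74 in IELs, Naive-like and Type-1 cells. Against Naive-like cells 1 of the 9 was higher in IELs and 1, Cd27, lower, where 5.19% of all genes passed. Against Type-1 cells 3 were higher in IELs and 1, again Cd27, lower, where 5.14% passed. The number of arrays limits the precision. The table has no detection calls, so a value near or below the median of all genes, 4.52, cannot be told from background, and differences that start from such values may be understated.

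In IELs against Naive-like cells 5 of the 10 integrin genes passed, against 5.19% of all genes, with Itga1, Itgax and Itga2 higher (3.57% of all genes were higher) and Itgal and Itga4 lower (1.62% were lower). In IELs against Type-1 cells 4 of the 10 passed, against 5.14% of all genes, with Itga1 and Itgax higher (3.73%) and Itgal and Itga4 lower (1.41%). In Type-1 against Naive-like cells none passed the limma test, against 0.284% of all genes (0.212% higher and 0.0721% lower), while 4 had an unadjusted p under 0.05, all of them higher in Type-1 cells, against 6.48% of all genes. Every called gene was an α chain, and no β chain passed in any comparison, though the difference between α and β chains was not tested. The arrays of the subsets did not overlap for 7 of the 10 genes in IELs against Naive-like cells, 6 in IELs against Type-1 cells and 4 in Type-1 against Naive-like cells, where 20.1%, 19.8% and 11.4% of all genes did not overlap. The comparisons share arrays and are given side by side for that reason. Since the 10 genes were chosen with earlier results of these data known, their counts beside the shares of all genes are description, not a test. The count of 5 rested on single arrays, since 3 genes passed without IELs replicate 2 or without Naive-like replicate 3. In Type-1 against Naive-like cells 2 passed without Type-1 replicate 1, namely Itga2 and Itgb1. With the replicate number as a block 2 passed there too, namely Itga1 and Itga2, though the labels do not give these numbers as pairs. In these bulk samples fewer cells of a type and less RNA per cell cannot be told apart.

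**Figure D1:**
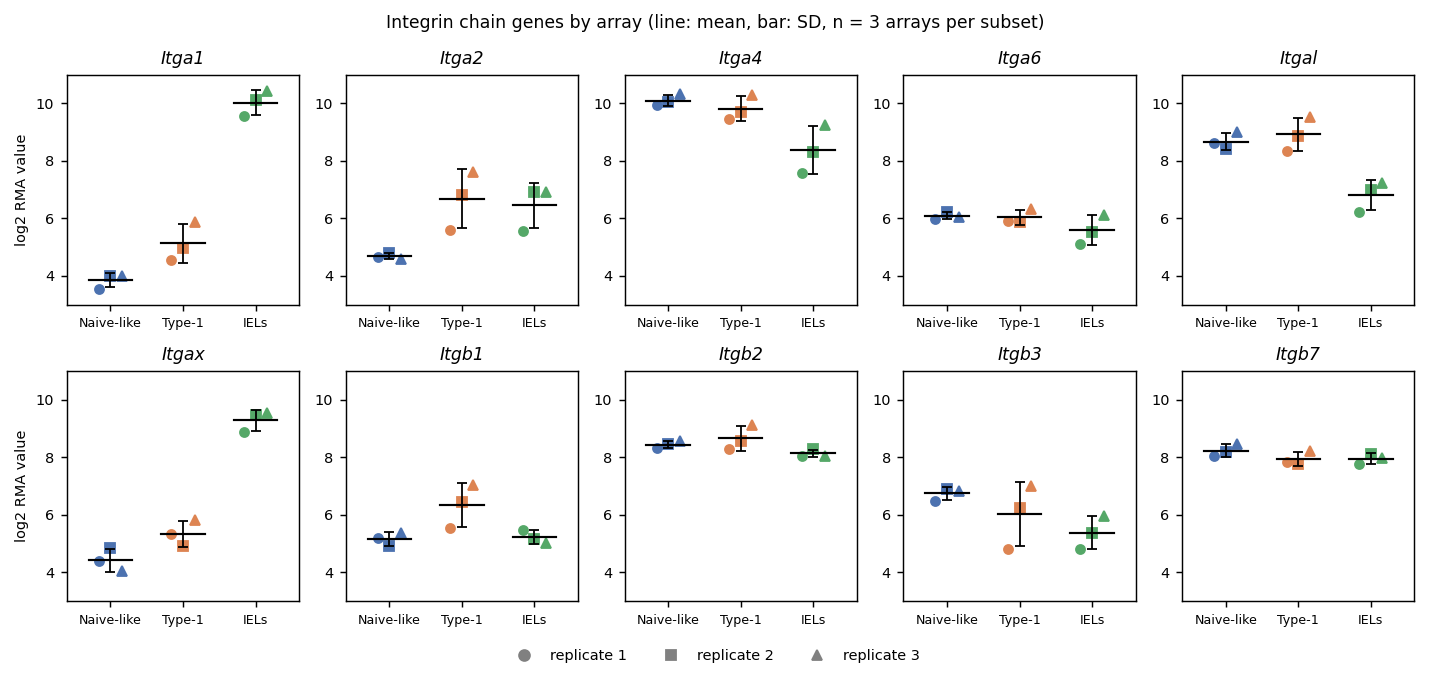
Log2 array value (y axis) of the 10 integrin chain genes on each array of Naive-like, Type-1 and IEL samples (x axis). Points are arrays with the replicate number as shape, lines are means and bars SDs of 3 arrays. Itga1 and Itgax stood far higher on all 3 IEL arrays, Itgal and Itga4 lower, and the β chains Itgb2 and Itgb7 lay within a narrow range.

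**Figure D2:**
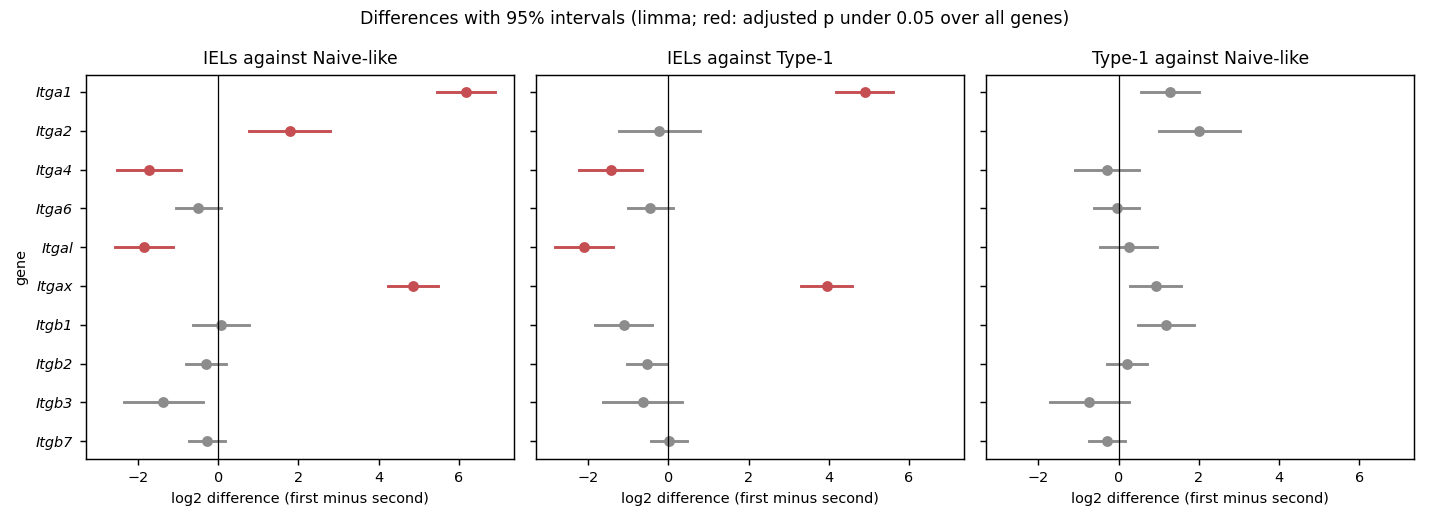
Log2 differences between subsets (x axis, first named minus second) for the 10 genes (y axis), with points for the limma estimate, lines for its 95% interval and red for an adjusted p under 0.05 over all genes. Itga1 and Itgax had the largest differences among the 10 genes in both comparisons with IELs, and no gene passed in Type-1 against Naive-like cells.

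The promoters of 4 α chain genes are shown because these are the called members with an entry among the RefSeq (GRCm38.p6) promoters used here, and they changed in opposite directions, higher in IELs for Itga1, Itga2 and Itgax and lower for Itga4. Each run holds 250 bases before the gene start and 50 after it, 5′ to 3′ on the gene's strand. Capitals mark matches, on either strand, to the motif letters TGTGGT (RUNX), GGGCGG (SP1), GGTGTGA (T-box) and AGGAAG (ETS), none of which overlap each other here.
Itga1, chr13:115101915-115102214, minus strand: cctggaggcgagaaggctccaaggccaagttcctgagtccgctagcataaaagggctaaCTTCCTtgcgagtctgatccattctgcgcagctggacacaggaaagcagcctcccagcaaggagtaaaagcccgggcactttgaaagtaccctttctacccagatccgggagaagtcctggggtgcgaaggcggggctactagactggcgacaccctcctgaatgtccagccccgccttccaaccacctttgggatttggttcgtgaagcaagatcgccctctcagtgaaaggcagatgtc
Itga2, chr13:114932051-114932350, minus strand: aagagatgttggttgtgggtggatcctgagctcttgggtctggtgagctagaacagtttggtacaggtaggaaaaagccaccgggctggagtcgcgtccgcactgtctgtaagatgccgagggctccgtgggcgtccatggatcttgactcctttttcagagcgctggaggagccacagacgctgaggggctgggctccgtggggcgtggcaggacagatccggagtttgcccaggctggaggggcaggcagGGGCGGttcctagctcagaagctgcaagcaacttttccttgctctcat
Itgax, chr7:128129300-128129599, plus strand: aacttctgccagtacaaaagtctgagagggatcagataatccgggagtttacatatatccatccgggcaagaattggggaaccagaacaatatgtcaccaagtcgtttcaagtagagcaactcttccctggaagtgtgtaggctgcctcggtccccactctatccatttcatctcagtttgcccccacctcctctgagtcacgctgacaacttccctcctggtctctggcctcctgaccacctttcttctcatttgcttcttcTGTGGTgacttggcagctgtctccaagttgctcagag
Itga4, chr2:79255176-79255475, plus strand: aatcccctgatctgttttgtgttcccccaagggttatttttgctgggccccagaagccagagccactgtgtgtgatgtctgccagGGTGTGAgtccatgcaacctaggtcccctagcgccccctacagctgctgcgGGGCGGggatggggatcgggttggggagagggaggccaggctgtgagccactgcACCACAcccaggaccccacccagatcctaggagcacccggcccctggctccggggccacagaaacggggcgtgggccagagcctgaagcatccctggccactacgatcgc
Of 32851 promoters of this length 16.8% hold the RUNX letters, 35.7% the SP1 letters, 4.0% the T-box letters and 35.4% the ETS letters. The Itga1 promoter held 1 match to ETS, the Itga2 promoter 1 to SP1, the Itgax promoter 1 to RUNX, and the Itga4 promoter 1 each to RUNX, SP1 and T-box. None of the 4 motifs matched in more than 1 of the 3 genes that were higher in IELs, and a match describes letters, not a bound site. Promoters of 6 of the 10 genes were matched, including Itgb1 and Itgb7, which are not shown.

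Itga1 encodes the α1 chain, which pairs with β1 into a receptor for collagen and marks many T cells that stay in tissue. Its values were 9.55, 10.11 and 10.42 on the IEL arrays, 4.56, 4.96 and 5.88 on the Type-1 arrays and 3.56, 4.00 and 3.99 on the Naive-like arrays. The 3 groups did not overlap, and the order of the means was IELs, Type-1, Naive-like. Itga1 was higher in IELs than Naive-like cells by 6.18 ± 0.33 (limma, adjusted p = 4.3e-07), which is 72.4-fold, and than in Type-1 cells by 4.90 ± 0.33 (adjusted p = 2.9e-06). Type-1 cells exceeded Naive-like cells by 1.28 ± 0.33, a difference that did not pass (limma, adjusted p = 0.25, 95% interval 0.57 to 2.00). Of 21 alternatives it passed under 1, with the replicate number as a block (limma, adjusted p = 0.043). The Naive-like mean, 3.85 ± 0.25, lay below the median of all genes. Both calls of Itga1 held under all 21 alternatives, with differences of 5.98 to 6.42 against Naive-like and 4.61 to 5.27 against Type-1 cells. The annotation places Pelo, a ribosome rescue factor gene, over the Itga1 gene, and the row of Pelo was higher in IELs too, by 1.31 ± 0.25 against Naive-like cells (limma, adjusted p = 0.0063).

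Itga2, the neighbour of Itga1 on chromosome 13 with no protein-coding gene between them, encodes α2, another collagen receptor chain that pairs with β1 and a marker of natural killer (NK) cells. Its values were 5.60, 6.83 and 7.63 in Type-1 cells, 5.55, 6.91 and 6.91 in IELs and 4.66, 4.79 and 4.58 in Naive-like cells. IELs and Type-1 cells lay above all Naive-like arrays and overlapped each other. Itga2 was higher in IELs than Naive-like cells by 1.78 ± 0.46 (limma, adjusted p = 0.046), and Type-1 cells exceeded Naive-like cells by 2.01 ± 0.46 without passing (adjusted p = 0.17, 95% interval 1.00 to 3.02). IELs and Type-1 cells differed by -0.23 ± 0.46 (limma, 95% interval -1.24 to 0.78). The call in IELs was close to the threshold and was lost under 9 of 21 alternatives, among them each removal of IELs replicate 2 or 3, of any Naive-like array or of Type-1 replicate 2, with adjusted p up to 0.27. Without Type-1 replicate 1, the lowest of its subset, Type-1 cells passed against Naive-like cells (2.55, limma, adjusted p = 0.017). They also passed with the replicate number as a block (limma, adjusted p = 0.042).

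Itgb1 encodes β1, the partner that α1, α2, α4 and α6 share. Its values were 5.53, 6.44 and 7.05 in Type-1 cells, 5.48, 5.16 and 5.02 in IELs and 5.17, 4.91 and 5.38 in Naive-like cells. All Type-1 arrays lay above the arrays of both other subsets, narrowly so for replicate 1. Neither difference passed, at 1.18 ± 0.32 against Naive-like cells (limma, adjusted p = 0.32) and -1.12 ± 0.32 for IELs against Type-1 cells (limma, adjusted p = 0.079). Without Type-1 replicate 1 both passed, at 1.59 (adjusted p = 0.029) and -1.52 (limma, adjusted p = 0.0051). IELs against Type-1 cells also passed with quantile normalization, cyclic loess or array weights, at -1.24, -1.19 and -1.18 (limma, adjusted p = 0.036, 0.047 and 0.025). IELs and Naive-like cells differed by 0.07 ± 0.32 (limma, 95% interval -0.64 to 0.77). Itga1 rose in IELs, while the row of its partner did not pass. Within each array the log2 value of Itga1 minus that of Itgb1 was 4.81 ± 0.68 in IELs, -1.21 ± 0.26 in Type-1 and -1.30 ± 0.36 in Naive-like cells (SD, n = 3). Levels of different rows are not compared here, only the shift of their difference, which was 6.11 from Naive-like cells to IELs and 0.10 from Naive-like to Type-1 cells. The difference of Itga2 and Itgb1 shifted by 1.71 and 0.83 in the same order.

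Itgax encodes αX (CD11c), which pairs with β2 and is best known from dendritic cells, though intestinal and activated T cells carry it too. Its values were 8.87, 9.47 and 9.52 in IELs, 5.34, 4.90 and 5.80 in Type-1 cells and 4.39, 4.84 and 4.03 in Naive-like cells. Every IEL array lay far above every lymph node array, and Type-1 replicate 2 lay barely above the highest Naive-like array. Itgax was higher in IELs than Naive-like cells by 4.86 ± 0.29 (limma, adjusted p = 8.7e-07), which is 29.1-fold, and than in Type-1 cells by 3.94 ± 0.29 (adjusted p = 6.3e-06). The difference of 0.92 ± 0.29 between Type-1 and Naive-like cells did not pass (limma, adjusted p = 0.45, 95% interval 0.30 to 1.55). The Naive-like mean, 4.42 ± 0.40, lay just below the median of all genes, so that the fold may be understated. Both calls held under all 21 alternatives, with differences of 4.55 to 5.07 and 3.72 to 4.17. Of 19 genes listed as markers of dendritic cells and macrophages 16 were measured. None passed the limma test in IELs against Naive-like cells, where 5.19% of all genes passed. An unadjusted limma p under 0.05 was seen for 2 of the 16 (Batf3 at 1.19 and Lyz2 at 0.99), beside 14.2% of all genes. The summed linear signal of the 16 genes was 455 to 534 in IELs, 333 to 517 in Naive-like and 314 to 550 in Type-1 cells. Of the 16 markers 7 lay above the median of all genes in IELs and 6 in each lymph node subset. The 7 in IELs were H2-Eb1 (6.67), Batf3 (6.31), Cd209a (5.94), H2-Aa, Lyz2, C1qa and Xcr1. The others, among them Csf1r, Adgre1 and Cd14, lay below it there. The part of such cells in the Itgax values was not tested.

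Itgal encodes αL (CD11a), which with β2 forms LFA-1, the T cell receptor for ICAM-1 and other intercellular adhesion molecules. Its values were 6.22, 6.98 and 7.24 in IELs, 8.60, 8.40 and 8.99 in Naive-like cells and 8.35, 8.87 and 9.52 in Type-1 cells. The lymph node subsets overlapped each other, and all their arrays lay above all IEL arrays. Itgal fell by 1.85 ± 0.33 in IELs against Naive-like cells (limma, adjusted p = 0.0044) and by 2.10 ± 0.33 against Type-1 cells (adjusted p = 0.0021), so that the lymph node subsets stood 3.61-fold and 4.30-fold above IELs. Type-1 and Naive-like cells differed by 0.25 ± 0.33 (limma, 95% interval -0.46 to 0.96). Both calls held under all 21 alternatives, with adjusted p up to 0.028.

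Itgb2 encodes β2 (CD18), the chain common to LFA-1 and the CD11c integrin. Its values were 8.05, 8.28 and 8.06 in IELs, 8.31, 8.45 and 8.57 in Naive-like cells and 8.28, 8.57 and 9.12 in Type-1 cells. All IEL arrays lay below all lymph node arrays, by the narrowest of margins for IELs replicate 2 and Type-1 replicate 1. Neither difference of IELs passed, at -0.31 ± 0.23 against Naive-like cells (limma, 95% interval -0.81 to 0.18) and -0.53 ± 0.23 against Type-1 cells (limma, adjusted p = 0.27, 95% interval -1.02 to -0.03). Beside this steadier partner the α chains moved opposite ways. Itgax minus Itgb2 was 1.16 ± 0.32 in IELs, -3.31 ± 0.37 in Type-1 and -4.02 ± 0.47 in Naive-like cells (SD, n = 3), and Itgal minus Itgb2 was -1.32 ± 0.51, 0.26 ± 0.17 and 0.23 ± 0.25. For both pairs no IEL array overlapped a lymph node array, and the Type-1 and Naive-like arrays overlapped.

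**Figure D3:**
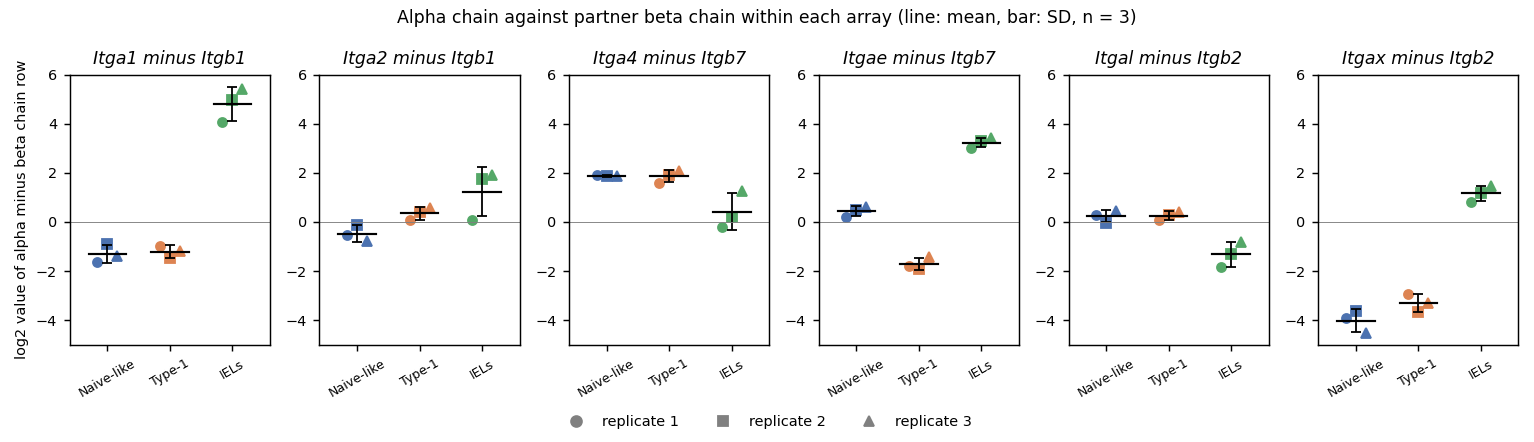
Log2 value of an α chain row minus that of its β chain row within each array (y axis), for 6 pairs in Naive-like, Type-1 and IEL arrays (x axis). Points are arrays, lines means and bars SDs of 3 arrays, and only the shift between subsets is meaningful, since rows of different genes have different probes. Itga1, Itgax and Itgae rose against their partners in IELs while Itgal and Itga4 fell, and Itgae fell against Itgb7 in Type-1 cells.

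The genes next to Itgax differed in the same direction. On mouse chromosome 7 Itgam, Itgax and Itgad follow each other with no protein-coding gene between them, and all 3 encode α chains that pair with β2. Itgad, the αD chain gene, was at 7.34, 7.43 and 7.78 in IELs and at 3.80 to 4.12 on all 6 lymph node arrays. It was higher in IELs by 3.61 ± 0.19 against Naive-like cells (limma, adjusted p = 4.3e-07) and by 3.46 ± 0.19 against Type-1 cells (adjusted p = 7.1e-07), while Type-1 and Naive-like cells differed by 0.16 ± 0.19 (limma, 95% interval -0.26 to 0.58). Itgam, the CD11b gene, was at 4.67 to 4.98 in IELs, near the median of all genes, and passed by smaller amounts, 0.82 ± 0.21 and 0.94 ± 0.21 (limma, adjusted p = 0.045 and 0.022). The flanking genes Trim72 and Cox6a2 did not pass, at -0.20 ± 0.23 and 0.13 ± 0.26 in IELs against Naive-like cells, and Cox6a2 overlaps Itgad in the annotation. Itgal lies on the same chromosome with 35 protein-coding genes between it and Itgam, and changed in the opposite direction.

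Itga4 encodes α4, which pairs with β1 into a VCAM-1 receptor and with β7 into the MAdCAM-1 receptor that brings lymphocytes into the gut wall. Its values were 7.56, 8.30 and 9.24 in IELs, 9.94, 10.03 and 10.32 in Naive-like cells and 9.45, 9.69 and 10.29 in Type-1 cells. IELs lay below all lymph node arrays and spread widely, with replicate 3 close to the lowest Type-1 array. Itga4 fell by 1.73 ± 0.36 in IELs against Naive-like cells (limma, adjusted p = 0.013) and by 1.44 ± 0.36 against Type-1 cells (adjusted p = 0.040). The first call was lost without IELs replicate 2 (adjusted p = 0.058) or Naive-like replicate 3 (adjusted p = 0.066). The second was lost under 9 of 21 alternatives, including removal of IELs replicate 1 or 2, of any Naive-like array or of Type-1 replicate 2 or 3, with limma differences of -1.88 to -1.04 and adjusted p up to 0.13. Type-1 and Naive-like cells differed by -0.29 ± 0.36 (limma, 95% interval -1.08 to 0.50). Cerkl overlaps Itga4, and a row annotated to both genes, which was not tested, ran from 4.32 to 4.54 in IELs, 4.63 to 4.65 in Naive-like and 4.50 to 4.82 in Type-1 cells.

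Itgb7 encodes β7, which α4 and αE share. Its values were 7.75, 8.11 and 7.98 in IELs, 8.04, 8.17 and 8.47 in Naive-like cells and 7.85, 7.77 and 8.21 in Type-1 cells, and all 3 groups overlapped. It had the smallest spread between subset means of the 10 genes, and none of its differences passed (limma, adjusted p of 0.67, 0.89 and 0.99). For IELs against Type-1 cells the difference was 0.01 ± 0.21 (limma, 95% interval -0.44 to 0.46). Itgae, by contrast, was at 11.18 ± 0.36 in IELs, 8.67 ± 0.42 in Naive-like and 6.23 ± 0.49 in Type-1 cells and passed in every comparison. Within arrays Itgae minus Itgb7 was 3.23 ± 0.20 in IELs, 0.44 ± 0.21 in Naive-like and -1.72 ± 0.26 in Type-1 cells (SD, n = 3), with no overlap between any pair of subsets. Itga4 minus Itgb7 was 0.42 ± 0.75 in IELs, 1.87 ± 0.02 in Naive-like and 1.87 ± 0.25 in Type-1 cells, so that IELs differed from lymph node cells in opposite directions for the partners of β7. The lymph node subsets overlapped for Itga4 and were separate for Itgae.

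Itga6 encodes α6, a laminin receptor chain that pairs with β1 in lymphocytes and with β4 in epithelial cells. Its values were 5.11, 5.52 and 6.13 in IELs, 5.98, 6.22 and 6.06 in Naive-like cells and 5.90, 5.87 and 6.33 in Type-1 cells. IELs had the lowest mean, with replicate 3 inside the range of both lymph node subsets. No difference passed (limma, -0.50 ± 0.26 against Naive-like cells with a 95% interval of -1.06 to 0.06, and -0.45 ± 0.26 against Type-1 cells with -1.01 to 0.11). The lymph node subsets differed by -0.05 ± 0.26 (limma, 95% interval -0.61 to 0.51).

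Itgb3 encodes β3, the partner of αV in receptors for vitronectin and other matrix proteins and of αIIb on platelets. Its values were 4.80, 5.36 and 5.96 in IELs, 6.48, 6.91 and 6.83 in Naive-like cells and 4.81, 6.24 and 7.00 in Type-1 cells. IELs lay below all Naive-like arrays, while Type-1 cells overlapped both others, with the widest SD of any integrin gene and subset, 1.11. The difference of IELs from Naive-like cells, -1.37 ± 0.46, did not pass (limma, adjusted p = 0.14, 95% interval -2.36 to -0.37), but passed without Type-1 replicate 1 (adjusted p = 0.019) and with only the 2 subsets in the fit (limma, adjusted p = 0.015). Itgav, its α partner and no member of the list, went the other way, higher in IELs by 1.43 ± 0.30 against Naive-like cells (limma, adjusted p = 0.013) and by 1.77 ± 0.30 against Type-1 cells (adjusted p = 0.0037). Itgav minus Itgb3 shifted by 2.80 and 2.42 in IELs against Naive-like and Type-1 cells, and by 2.13 and 1.55 when the mean of the 2 rows of Itgav was taken. Of 10 genes listed for platelets and megakaryocytes, cells rich in β3, 7 were measured and none passed by limma. None had an unadjusted limma p under 0.05 in IELs against Naive-like cells, where 14.2% of all genes did. The summed linear signal of the 7 genes was 152 to 176 in IELs, 142 to 170 in Naive-like and 172 to 216 in Type-1 cells.

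Most of the integrin genes varied together from array to array within Type-1 cells and within IELs. Type-1 replicate 3 had the highest value of its subset for all 10 genes, where 31.7% of all genes, and 42.6% of the 12073 genes whose highest subset mean exceeded the median of all genes, were highest there. Type-1 replicate 1 was the lowest for 7 of the 10, where 35.2% of these brighter genes were lowest. IELs replicate 1 was the lowest for 9 of the 10, Itgb1 being the exception, where 51.1% of the brighter genes were lowest. The median deviation of the 10 genes from their subset mean was 0.55 on Type-1 replicate 3, -0.47 on Type-1 replicate 1 and -0.48 on IELs replicate 1. That of the brighter genes was 0.08, -0.01 and -0.09 on these arrays, and that of all genes lay between -0.03 and 0.02 on the 9 arrays. Naive-like arrays differed less, with medians of -0.12 to 0.13 for the 10 genes, beside -0.06 to 0.12 for the brighter genes. There 5 of the 10 genes were highest on replicate 2 and 5 on replicate 3, beside 24.6% and 53.6% of the brighter genes. Itgb3 and Itga2 deviated most, by -1.21 and -1.09 on Type-1 replicate 1. IELs replicate 1 had the lowest array weight in limma, 0.44, and replicate 3 differs from the other arrays of each subset by a numeric code in its description. The part of either in these deviations was not tested.

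**Figure D4:**
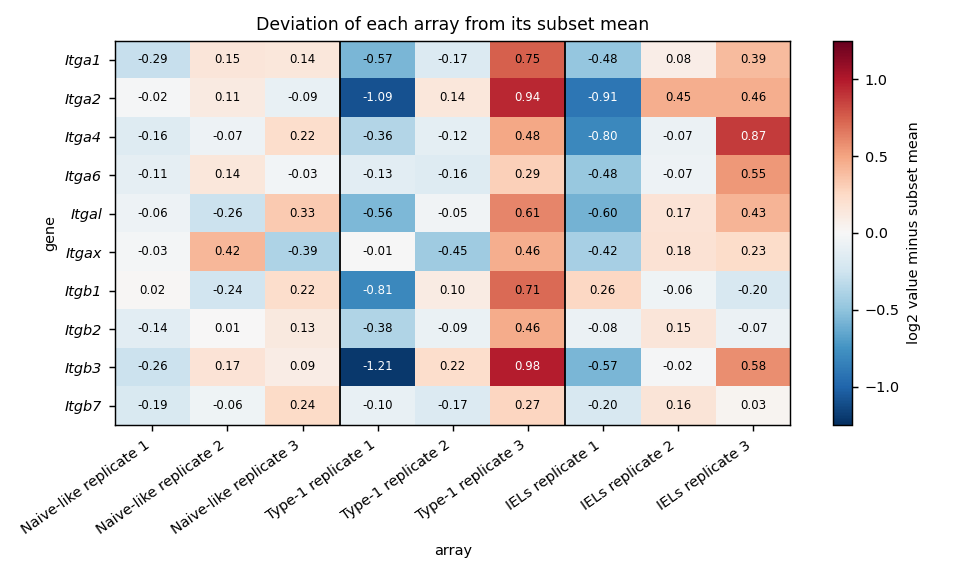
Log2 value of each of the 10 genes (y axis) on each array (x axis) minus the mean of that array's subset, as colour and number. Type-1 replicate 3 was above its subset mean for all 10 genes, and IELs replicate 1 below it for 9.

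Among the 15 other integrin chain genes with a row of their own, of 16 listed, 4 were higher in IELs than Naive-like cells and none was lower, and the same held against Type-1 cells. These 4 were Itgae, Itgad, Itgav and Itgam in both comparisons, with the values given above. Of all genes 3.57% were higher and 1.62% lower against Naive-like cells, and 3.73% higher and 1.41% lower against Type-1 cells. In Type-1 against Naive-like cells only Itgae passed by limma, where it fell by 2.44 ± 0.30 (adjusted p = 0.0028), and 0.284% of all genes passed. The median difference over these 15 genes was 0.04, -0.08 and -0.04 in IELs against Naive-like, IELs against Type-1 and Type-1 against Naive-like cells, and over the 10 genes above it was -0.30, -0.49 and 0.23, beside -0.01, -0.03 and 0.03 over all genes. The count of 4 against Naive-like cells fell to 2 without IELs replicate 2 or 3 or without Naive-like replicate 1. Itga5, the fibronectin receptor chain gene, was lower in IELs than in Naive-like cells by a value that did not pass (limma, -0.69, adjusted p = 0.080).

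**Figure D5:**
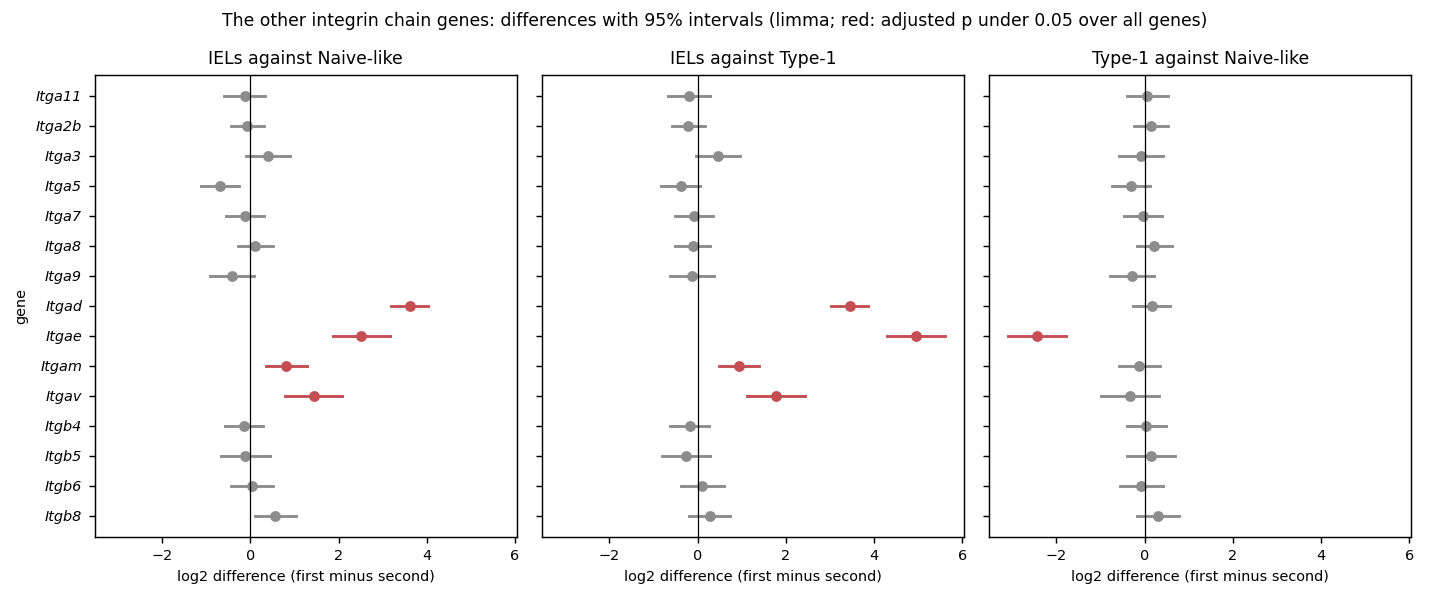
Log2 differences (x axis, first named minus second) of the 15 other integrin chain genes (y axis), with 95% intervals from limma and red for an adjusted p under 0.05 over all genes. Itgad, Itgae, Itgam and Itgav were higher in IELs in both comparisons, and Itgae alone differed between the lymph node subsets.

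Of 25 measured genes that switch integrins on or off from inside the cell (26 listed), 1 was higher and 3 lower in IELs against Naive-like cells, where 3.57% of all genes were higher and 1.62% lower. Rasgrp2, whose product loads the small GTPase Rap1 and so activates integrins, was at 6.12, 5.97 and 6.08 in IELs, 7.91, 7.79 and 8.71 in Naive-like cells and 7.71, 7.56 and 8.04 in Type-1 cells. All IEL arrays lay below all lymph node arrays. It fell by 2.08 ± 0.25 and 1.71 ± 0.25 in IELs against Naive-like and Type-1 cells (limma, adjusted p = 2.6e-04 and 0.0013). Rasa3, a GTPase-activating protein for Ras and Rap1, fell by 2.41 ± 0.28 and 1.97 ± 0.28 (limma, adjusted p = 2.1e-04 and 0.0011), and Cyth1, encoding cytohesin-1, a β2 chain binder, fell by 1.47 ± 0.27 against Naive-like cells (limma, adjusted p = 0.0050). Skap2, an adaptor of integrin signalling in leukocytes, rose by 1.66 ± 0.25 and 2.36 ± 0.25 (limma, adjusted p = 0.0014 and 1.1e-04). Against Type-1 cells 2 were higher and 2 lower, where 3.73% of all genes were higher and 1.41% lower, Dok1, an adaptor that competes with talin on β chain tails, being the other that rose, by 1.12 ± 0.29 (limma, adjusted p = 0.044). Talin and kindlin, the proteins that open integrins, did not pass, with Tln1 at -0.26 ± 0.33 and Fermt3 at -0.74 ± 0.24 in IELs against Naive-like cells (limma, adjusted p = 0.86 and 0.12). The list's median difference was -0.25 and 0.00 in IELs against Naive-like and Type-1 cells.

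Of 24 measured genes of the adhesion complex and its signalling (30 listed), 1 was higher and 3 lower in IELs against Naive-like cells, where 3.57% of all genes were higher and 1.62% lower. Actn1, encoding the actin crosslinker α-actinin, fell by 2.25 ± 0.30, the filamin gene Flna fell by 1.78 ± 0.37 and Zyx, encoding zyxin, fell by 1.10 ± 0.20, while the kinase gene Fyn rose by 0.88 ± 0.21 (limma, adjusted p = 4.9e-04, 0.012, 0.0056 and 0.030). Against Type-1 cells Zyx fell by 1.53 ± 0.20 and Actn1 by 1.14 ± 0.30 (limma, adjusted p = 5.5e-04 and 0.047), 2 of 24 or 8.33% beside 5.14% of all genes. The count against Naive-like cells was 2 without Naive-like replicate 3, and that against Type-1 cells was 1 without any one of IELs replicates 2 and 3, the 3 Naive-like arrays and Type-1 replicate 3. In Type-1 against Naive-like cells no gene of the activation, adhesion or ligand lists passed by limma, where 0.284% of all genes passed. Of their 25, 24 and 32 measured genes 4, 3 and 0 had an unadjusted limma p under 0.05, beside 6.48% of all genes.

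Of 32 measured integrin ligand genes (34 listed), 1 was higher and 1 lower in IELs in both comparisons, a share of 6.25% beside 5.19% and 5.14% of all genes. Cdh1, which encodes E-cadherin, the ligand of αEβ7, was higher by 3.71 ± 0.37 against Naive-like and 3.46 ± 0.37 against Type-1 cells (limma, adjusted p = 5.5e-05 and 1.1e-04), and it is also a marker of epithelium. Icam2, a ligand of LFA-1 on leukocytes and endothelium, fell by 1.56 ± 0.21 and 1.22 ± 0.21 (limma, adjusted p = 5.4e-04 and 0.0037), in the same subset in which Itgal fell. Icam1 was at 7.63 in IELs and 7.23 in Naive-like cells and did not pass (limma, adjusted p = 0.61), and the gut vessel ligand gene Madcam1 lay at 4.86 and 5.01.

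Markers of other cell types moved with some of these comparisons. Of 20 genes listed for intestinal epithelium 14 were higher in IELs than Naive-like cells and 13 higher than in Type-1 cells, with none lower. Of all genes 3.57% were higher and 1.62% lower in IELs against Naive-like cells, and 3.73% and 1.41% against Type-1 cells. These shares also stand beside the counts of the lists below. The summed linear signal of the epithelial list was 1773 to 3405 in IELs against 419 to 467 in Naive-like and 428 to 467 in Type-1 cells. The sum was highest on IELs replicate 2 and lowest on IELs replicate 3. Of the 10 integrin genes 7 were highest on IELs replicate 3, 2 (Itgb2 and Itgb7) on replicate 2 and 1 (Itgb1) on replicate 1. Of the brighter genes 37.8%, 33.0% and 29.2% were highest on these arrays. Itga6 and Itgb1, which are also genes of epithelial cells, did not pass in either comparison with IELs, and the part of epithelial cells was not tested. Of 11 genes listed for NK and innate lymphoid cells 7 were measured, and 5 were higher in Type-1 than in Naive-like cells, including Ncr1 (2.24 ± 0.39) and Klrb1c (2.50 ± 0.32). Of all genes 0.212% were higher in that comparison. In IELs 3 were higher and 1 lower against Naive-like cells, and 2 were higher and 3 lower against Type-1 cells. Fcer1g was higher by 5.60 ± 0.32 and 3.26 ± 0.32 and Tyrobp by 5.28 ± 0.33 and 3.33 ± 0.33. The 3 that were lower against Type-1 cells were Eomes (-3.41 ± 0.27), Ncr1 (-2.20 ± 0.39) and Klrb1c (-1.26 ± 0.32). The summed linear signal of the list was 2867 to 4245 in IELs, 611 to 879 in Type-1 and 212 to 291 in Naive-like cells. In IELs Fcer1g (10.98) and Tyrobp (10.32) had by far the highest means of the list, and Ncr1 was at 4.26, below the median of all genes. Within Type-1 cells the summed signal was lowest on replicate 1 and highest on replicate 3, the order also seen for 7 of the 10 integrin genes. Of the brighter genes 35.2% were lowest on replicate 1 and 42.6% highest on replicate 3. Of 6 genes listed for αβ T cells 3 were measured, with a summed linear signal of 1213 to 1483 in Naive-like, 301 to 375 in Type-1 and 108 to 491 in IELs. This sum was largely that of Cd8b1, the CD8β chain gene, since Cd4 and Foxp3 lay below the median of all genes in every subset. Cd8b1 fell by 2.81 ± 0.47 in IELs against Naive-like cells (limma, adjusted p = 0.0031). It was at 8.21 in Type-1 and 10.35 in Naive-like cells, a difference that did not pass (limma, adjusted p = 0.14). Of 11 genes listed for stroma and endothelium Pecam1 alone passed, and it fell by 2.81 ± 0.30 and fell by 1.73 ± 0.30 in IELs against Naive-like and Type-1 cells. The summed signal of that list was 225 to 259 in IELs, 605 to 700 in Naive-like and 354 to 490 in Type-1 cells. Pecam1 had the highest mean of the list in each of them, at 6.04, 8.84 and 7.77. None of 6 measured B cell genes passed by limma in any comparison. In IELs against Type-1 cells 1 had an unadjusted limma p under 0.05, beside 16.3% of all genes. Of 10 mast cell genes Kit alone passed, higher in IELs, and Cpa3, Mcpt1, Mcpt2 and Fcer1a lay below the median of all genes. The part of any of these cells in the integrin values was not tested.

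The genes most like each called integrin gene over the 9 arrays were taken by Pearson's r among 10844 genes. For Itga1 they were Klrb1, Tigit and Dapk2, at r of 0.990, 0.990 and 0.989, and for Itgax they were Gzmb, Dapk2 and Hspa8, at 0.995, 0.992 and 0.988. For Itgal they were Jak1, Klhl6 and Cdc25b (0.985, 0.985 and 0.981), for Itga4 Blk, Fam117a and Armcx2 (0.977, 0.975 and 0.970) and for Itga2 Nod1, Bcl2 and Il2rb (0.970, 0.941 and 0.937). The 9 arrays fall into 3 subsets and share their normalization, so these values mainly describe the order of the subsets.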

How the data were processed

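The authors deposited log2 expression values of 9 arrays in 1 table, for which the submitters' processing notes name oligo and RMA without versions. RMA corrects background, brings the arrays to a common distribution and summarises probes, so global differences in signal between arrays are removed before deposit. Of 41345 array rows 23521 carried 1 gene symbol, 1814 several and 16010 none, per GEO's platform annotation. Genes were the 22180 symbols with a row of their own, taken at the row of highest mean (1082 genes had several rows). Samples were grouped by their titles. One model over 3 subsets was fitted with limma 3.58.1 (R 4.3.3, lmFit and eBayes, 6 residual degrees of freedom), with Benjamini-Hochberg adjustment over all genes and a threshold of 0.05, and was tested on simulated data. Differences had a median standard error of 0.24. Tables and figures were made with Python 3.11.15, pandas 2.3.3 and matplotlib 3.10.9. The 10 integrin genes and all gene lists were chosen with earlier results of these data known. Genes outside the 10 were named where they passed within a list, pair with or adjoin a member, or were the 3 most alike by Pearson's r; the unadjusted ones, Tln1, Fermt3, Icam1, Madcam1, Itga5, and single cell type markers were named after their values were seen. Alternatives changed the scaling, the filter on dim genes, the rows per gene, the spread, the weights, the arrays in the fit and the block. Promoters came from RefSeq (GRCm38.p6), with their coordinates, and gene order and overlaps came from RefSeq's annotation of that build, of which no other coordinates are printed.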

Additional observations from a re-analysis of the deposited data

How the results depend on the processing

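Of 9 calls of an integrin gene in a comparison, 6 held under all 21 alternatives, namely Itga1, Itgax and Itgal in both comparisons with IELs. Of 630 values tried for the 10 genes 580 kept their direction and side of the threshold, 20 no longer passed, 11 newly passed and 19 changed sign, each from a size of at most 0.25. For IELs against Naive-like cells 1920 genes passed with array weights and 534 over the arrays without the numeric code, against 1152. Over those arrays 20 passed in Type-1 against Naive-like cells, against 63, and 565 in IELs against Type-1 cells, against 1140; all 3 counts rest on fewer arrays by construction. Leaving out 1 array at a time gave 826 to 1227, 34 to 87 and 724 to 1308 genes for the same order of comparisons, and 3 to 6, 0 to 2 and 3 to 5 integrin genes. Same-numbered arrays deviated from their subset means with correlations of -0.015 to 0.382 and different-numbered ones with -0.290 to 0.212, and the labels give no shared source, so the numbers were not taken as pairs. With the replicate number as a block 2 integrin genes, Itga1 and Itga2, passed in Type-1 against Naive-like cells (limma, adjusted p = 0.043 and 0.042), and Itgb3 passed in IELs against Naive-like cells (limma, adjusted p = 0.022); the block changed no other call of the 10 genes. For 7 of the 9 arrays the highest of these correlations was with an array of the same number. Signs changed for Itga6 in Type-1 against Naive-like cells with quantile normalization (0.028) and cyclic loess (0.033), and, in IELs against Type-1 cells, for Itgb7 with the same settings (-0.15 and -0.090) and for Itga2 with array weights (0.075) and over the arrays without the code (0.016). Without single arrays Itgb1 ran from -0.063 to 0.18 in IELs against Naive-like cells. In Type-1 against Naive-like cells Itga6 ran from -0.20 to 0.029, Itgal from -0.054 to 0.53 and Itgb2 from -0.015 to 0.41, and in IELs against Type-1 cells Itga2 ran from -0.77 to 0.24 and Itgb7 from -0.076 to 0.14. The cause of these changes was not tested. Without detection calls, values near 4.52 have no known distance from background.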
